A study of Mus musculus with 8 samples.

Results

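The mRNAs of the EGF family examined here are those of 6 ligands (Areg, Ereg, Egf, Tgfa, Hbegf and Nrg1) and of the 4 receptors (Egfr, Erbb2, Erbb3 and Erbb4). These 10 genes were taken by name and found by symbol among 55385 gene IDs. They were measured by mRNA sequencing of whole lungs of C57BL/6 mouse fetuses at E18.5. In the fetuses with tracheal occlusion (TO) the trachea was tied at E16.5 through the uterine wall, together with one carotid artery and jugular vein, and the control libraries are labeled as controls without further detail. In the study's TO protocol the dams were given progesterone on E17.5, the day between surgery and collection. Whether the control lungs came from such dams is not stated. There were 4 control and 4 TO libraries, each named here by its group and replicate number. The sources used here do not say whether the lungs of a group came from separate litters, so a p-value measures the spread between these libraries only.

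The EGF family passes signals between neighboring cells. Its ligands are made as membrane proteins, cut free by sheddases, and bound through a short module held by 3 pairs of cysteines. Binding pairs the receptors, which phosphorylate each other and switch on the ERK, PI3K-AKT and STAT relays. Areg, Egf and Tgfa bind Egfr, Hbegf and Ereg bind Egfr and Erbb4, and Nrg1 binds Erbb3 and Erbb4. Erbb2 binds no known ligand and serves as the preferred partner, and Erbb3 has little kinase activity of its own. In the fetal lung the family acts in epithelial growth, branching and surfactant maturation, and in heart muscle Nrg1 signals through Erbb2 and Erbb4.

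The coding sequence of the module is shown for 5 ligands because the module is what makes them one family and gives them their receptors. Each line was read 5′ to 3′ from the GENCODE M21 transcript with its exons joined, and the capitals mark the codons of the 6 cysteines.
Areg: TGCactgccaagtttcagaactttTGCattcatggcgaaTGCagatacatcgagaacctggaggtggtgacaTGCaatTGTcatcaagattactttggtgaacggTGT
Ereg: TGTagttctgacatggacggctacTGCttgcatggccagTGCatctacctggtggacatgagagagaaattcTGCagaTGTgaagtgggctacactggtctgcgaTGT
Tgfa: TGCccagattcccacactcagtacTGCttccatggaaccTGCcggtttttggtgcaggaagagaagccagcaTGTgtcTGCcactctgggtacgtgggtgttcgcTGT
Egf: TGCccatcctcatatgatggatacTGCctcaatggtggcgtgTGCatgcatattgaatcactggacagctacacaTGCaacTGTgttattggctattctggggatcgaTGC
Nrg1: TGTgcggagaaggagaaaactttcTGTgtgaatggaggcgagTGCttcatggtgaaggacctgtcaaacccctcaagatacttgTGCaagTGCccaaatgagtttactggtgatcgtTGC

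The modules of Areg, Ereg and Tgfa had the same spacing, with 7, 4, 10, 1 and 8 residues between successive cysteines. That of Egf had 5 residues in place of 4 in the second gap. The Nrg1 module was the longest, at 40 residues against 36 in Areg, Ereg and Tgfa, because its second gap held 5 residues and the next one 13. All of these modules are split over 2 coding exons. In GRCm38 they lie at chr5:91143614-91144364 on the plus strand in Areg, chr5:91088496-91089111 plus in Ereg, chr6:86263200-86269960 plus in Tgfa, chr3:129686322-129690850 minus in Egf and chr8:31837698-31849398 minus in Nrg1. The genes Epgn, Ereg, Areg and Btc, all ligands of this family, lie within 376 kb of chromosome 5, between positions 91027464 and 91402994, and Btc alone of them is on the minus strand.

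The files list the ligands as ENSMUSG00000029378.5 (Areg), ENSMUSG00000029377.5 (Ereg), ENSMUSG00000028017.7 (Egf), ENSMUSG00000029999.14 (Tgfa), ENSMUSG00000024486.6 (Hbegf) and ENSMUSG00000062991.9 (Nrg1). The receptors are ENSMUSG00000020122.16 (Egfr), ENSMUSG00000062312.5 (Erbb2), ENSMUSG00000018166.8 (Erbb3) and ENSMUSG00000062209.15 (Erbb4). Of the members not placed above, Hbegf lies on chromosome 18 (36504927 to 36515805, minus strand). Egfr (16752203 to 16918158) and Erbb2 (98412470 to 98437716) both lie on the plus strand of chromosome 11. Erbb3 is on chromosome 10 (128567523 to 128589652) and Erbb4 on chromosome 1 (68032186 to 69108059), each on the minus strand. Because the reads fell equally on both strands, those on bases shared by overlapping genes cannot be assigned to either, and they were left out of the counts. Overlap with another gene touched 9.8% of the exon bases of Egf, 4.7% of Nrg1, 3.4% of Ereg, 1.8% of Tgfa and 0.2% of Erbb2, and none of those of the other 5 members.

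Between 22822261 and 35002061 read pairs were counted on genes in 7 libraries, and 270078 in TO 1. A count of 3 therefore equals 0.0853 to 0.131 CPM, the count scaled to a common library total, in 7 libraries and 10.3 CPM in TO 1, so that most members were counted too few times in TO 1 to be measured. The study compared controls 1, 2 and 4 with TO 2, 3 and 4, and these 6 libraries give the differences below, with all libraries but TO 1 (7 libraries) beside them for every member and some other genes. Lung epithelial markers (Nkx2-1, Sftpc, Sftpb, Epcam and Cdh1) summed to 5810 to 16140 CPM and were present in every library. Heart muscle markers summed to 436.3 and 689.5 CPM in controls 2 and 1 but to 2306 to 5477 CPM in the other 6 libraries. Hepatocyte markers stood at 775.9 CPM in control 1 and 346.4 in TO 4 against 2.276 to 75.54 elsewhere, and markers of basal and stratified epithelium at 275.1 to 312.5 CPM in control 1, TO 1 and TO 4 against 6.713 to 11.32 elsewhere. In control 1 and TO 4 these were mostly Krt4 (149.2 and 133.7 CPM) and Krt13 (103.9 and 106.5 CPM). In TO 1 they were mostly Krt5 (192.3 CPM, 56 counts), with Krt4 at 3.434 CPM (1 count). Cell cycle markers summed to 388.4 CPM in control 3 and 371.3 in TO 3 against 766 to 1453 elsewhere. Control 3 and TO 3 alone share the code that ends their specimen names, so in the 6 libraries this code occurs only in TO. What a code stands for is not stated, and its part in these sums was not tested. All 5 cell cycle markers were lower in TO in the 6 libraries (median log2 fold change -0.67), with 0 of 5 at an unadjusted p under 0.05 (edgeR), the share of all genes there being 5.14%. Granulocyte markers had 3 of 5 and macrophage markers 3 of 5 such genes, all higher in TO. The epithelial markers had 1 of 5, Epcam, lower in TO (log2 fold change -0.55, unadjusted p = 0.0107, edgeR). In the 7 libraries the groups of Epcam overlapped, at a log2 fold change of -0.46 (unadjusted p = 0.0344, edgeR). The epithelial markers did not move together, with 3 lower in TO and 2 higher, Sftpb (0.38) and Sftpc (0.18). In whole lung, fewer cells of a type and less RNA per cell cannot be told apart, and the part of these differences in the values below was not tested unless a value is given.

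The receptors Erbb3 and Erbb2 were the most abundant members, and the order of the 6 highest per kilobase of exon was the same in every deep library. Levels are compared between genes as CPM per kilobase of exon, over the 7 libraries (mean ± SD, n = 7). The length is that of all annotated exons of a gene together, 1.215 kb for Areg and 11.33 kb for Egfr. Erbb3 was highest at 31.9 ± 6.42 and Erbb2 second at 20.8 ± 0.719. Areg, the most abundant ligand on this measure, followed at 8.73 ± 3.33 and stood above Egfr, its receptor, at 3.99 ± 0.545. Next came 2 further Egfr ligands, Hbegf at 2.37 ± 0.36 and Tgfa at 1.87 ± 0.279. These 6 genes kept this order in 7 of 7 libraries, and the ranges of Hbegf and Tgfa alone overlapped among neighbors in it. The order depends on the length. Not divided by it, Egfr was at 33.4 to 52.36 CPM, above Areg at 6.21 to 19.15. Tgfa (9.368 to 14.63 CPM) and Hbegf (9.609 to 14.17 CPM) then overlapped Areg.

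The last 4 members were scarce. Erbb4 averaged 0.614 ± 0.472 CPM per kilobase, Nrg1 0.395 ± 0.093, Egf 0.263 ± 0.0858 and Ereg 0.163 ± 0.0993. Their ranges overlapped from one neighbor to the next. Erbb4 was above Nrg1 in 5 of 7 libraries and below all other members in controls 1 and 2. Nrg1 was above Egf in 7 of 7 and Egf above Ereg in 6 of 7.

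**Figure D1:**
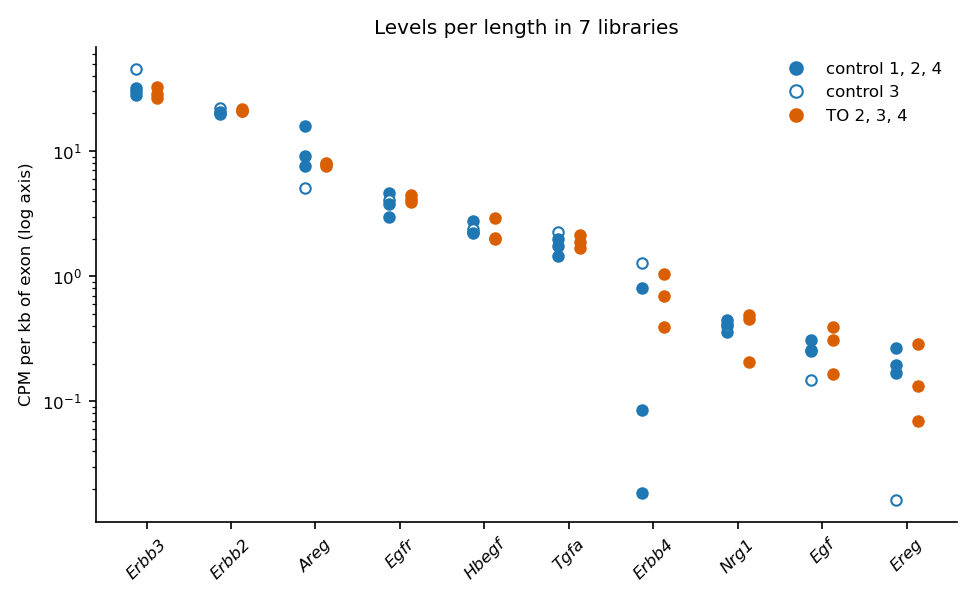
CPM per kilobase of exon (log axis) of each member in 7 libraries, ordered by mean, with controls in blue (control 3 open) and TO lungs in orange. The points of Erbb2 lie almost on each other, from 19.8 to 21.9, whereas those of Erbb4 run from 0.0184 to 1.27.

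No member of the family passed the test of TO against control lungs. At an adjusted p under 0.1 (edgeR's quasi-likelihood test, Benjamini-Hochberg over 21859 genes), 0 of 10 members were called, where 0% of all genes tested were. At an unadjusted p under 0.05 the members numbered 0 of 10, against 5.14% of all genes. DESeq2 also called 0 members, and 0.201% of all genes. The median log2 fold change of the 10 members was 0.00749, with 5 above 0 and 5 below, beside a median of -0.00449 over all genes. CPM of 1 member, Erbb2, did not overlap between the groups, where 10.9% of all genes did not. In the 7 libraries, where 3.94% of genes did not overlap and 2.0% had an unadjusted p under 0.05, both counts were 0 of 10. Log2 fold changes there were 0.245 for Egf, 0.0386 for Tgfa, -0.0613 for Hbegf and -0.0842 for Nrg1. They were 0.112 for Egfr and 0.0275 for Erbb2, and those of the remaining members are given below. With the replicate number as a block edgeR called 0 members in the 7 libraries, where 0.0222% of genes (5) were called.

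**Figure D2:**
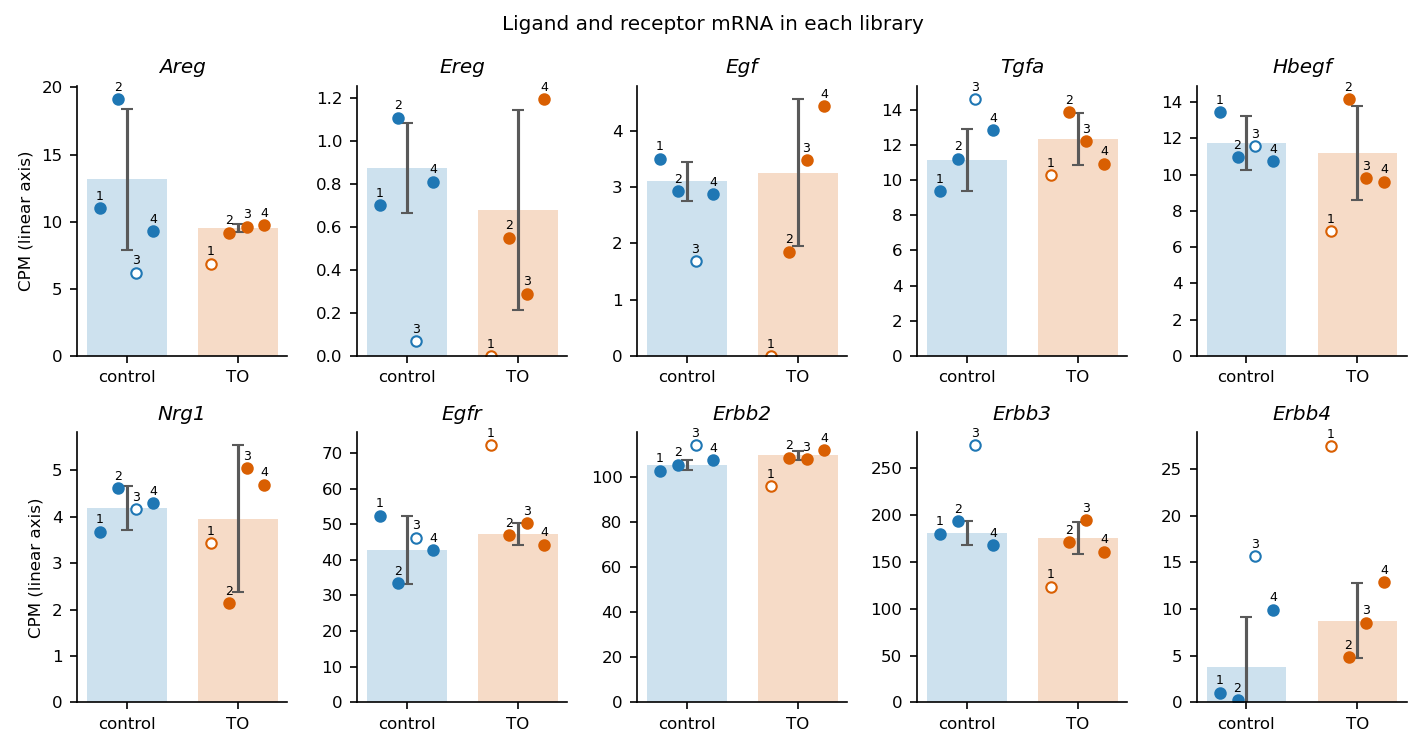
CPM (linear axes from 0) of each member in control (blue) and TO (orange) libraries, with the replicate number over each point. Bars give the mean and error bars the SD of controls 1, 2, 4 and TO 2, 3, 4, open circles are control 3 and TO 1, and the lower SD bar of control Erbb4 is cut at 0. The groups overlap in every panel except that the filled points of Erbb2 are slightly higher in TO.

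Amphiregulin (Areg), an epithelial and immune cell ligand of Egfr, had the largest ligand difference, and it rested on 1 library. Areg measured 11.03, 19.15, 6.21 and 9.299 CPM in controls 1 to 4. In TO 1 to 4 it measured 6.867 (2 counts), 9.193, 9.628 and 9.723 CPM. Control 2 was the highest library and control 3 the lowest of the 7 deep ones, with all TO lungs between them. TO lungs had 0.723 times the control level, a log2 fold change of -0.47 (SE 0.271, 95% interval -1.08 to 0.14, adjusted p = 0.907 in edgeR). It was -0.26 in the 7 libraries (adjusted p = 1, edgeR). Without control 2 it was -0.09 (unadjusted p = 0.682, adjusted p = 1, edgeR), and without control 4 it was -0.67 (unadjusted p = 0.0376, adjusted p = 0.739, edgeR). The 3 TO lungs differed little among themselves, at 9.515 ± 0.282 CPM (SD, n = 3) against 13.16 ± 5.26 (n = 3) in control.

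Epiregulin (Ereg), encoded beside Areg, was the scarcest member. It measured 0.7004, 1.106, 0.06713 and 0.8086 CPM in controls 1 to 4, which are 16, 34, 2 and 20 counts. In TO 2, 3 and 4 it measured 0.5493, 0.2893 and 1.194 CPM, from 19, 7 and 42 counts. TO 1 had 0 counts of Ereg, which at its depth allows up to 10.3 CPM and so says nothing of its level. The highest library was a TO lung and the lowest a control. Its log2 fold change was -0.35 (SE 0.685, 95% interval -1.89 to 1.20, adjusted p = 0.975 in edgeR) and changed sign in the 7 libraries, to 0.02 (adjusted p = 1, edgeR).

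Epidermal growth factor itself (Egf) was also low. Controls 1 to 4 measured 3.502, 2.927, 1.678 and 2.871 CPM, and TO 2, 3 and 4 measured 1.85, 3.471 and 4.435. TO 1 had 0 counts, with the same upper limit of 10.3 CPM. The 3 TO lungs spanned more than the 3 controls, 3.252 ± 1.31 CPM against 3.10 ± 0.349 (SD, n = 3 each). Between the groups the log2 fold change was 0.07 (SE 0.380, 95% interval -0.79 to 0.93, adjusted p = 0.989 in edgeR).

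Transforming growth factor alpha (Tgfa), a ligand of Egfr alone, varied little. It measured 9.368, 11.22, 14.63 and 12.86 CPM in controls 1 to 4. The TO lungs measured 10.3 (3 counts), 13.88, 12.23 and 10.95 CPM in the same order. The highest and the lowest library were both controls. The difference was 0.15 on the log2 scale (SE 0.199, 95% interval -0.30 to 0.60, adjusted p = 0.960 in edgeR).

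Heparin-binding EGF-like growth factor (Hbegf) was as even. Its controls measured 13.44, 10.96, 11.58 and 10.75 CPM. Its TO lungs measured 6.867 (2 counts), 14.17, 9.794 and 9.609 CPM. Among the 7 deep libraries TO 2 was the highest and TO 4 the lowest. Their log2 fold change was -0.07 (SE 0.219, 95% interval -0.56 to 0.43, adjusted p = 0.982 in edgeR).

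Neuregulin 1 (Nrg1), the ligand of Erbb3 and Erbb4, was steady in control lungs and lower in TO 2. Controls 1 to 4 measured 3.677, 4.618, 4.162 and 4.286 CPM. TO 1 to 4 measured 3.434 (1 count), 2.139, 5.041 and 4.691 CPM. TO 3 and TO 4 were the highest of the 7 deep libraries and TO 2 the lowest. In the 6 libraries the log2 fold change was -0.09 (SE 0.364, 95% interval -0.91 to 0.74, adjusted p = 0.984 in edgeR). Without TO 2 it was 0.21 (adjusted p = 0.935, edgeR).

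Egfr, the receptor of all the ligands above except Nrg1, was present at 33.4 to 52.36 CPM in the 7 deep libraries. Controls 1 to 4 measured 52.36, 33.4, 46.19 and 42.74 CPM. TO 2, 3 and 4 measured 46.98, 50.37 and 44.26 CPM, and TO 1 72.11 from 21 counts. All 3 deep TO lungs lay inside the control range. TO against control gave a log2 fold change of 0.14 (SE 0.168, 95% interval -0.24 to 0.52, adjusted p = 0.953 in edgeR).

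Erbb2, the shared partner receptor, was among the least variable genes of the lung transcriptome. Controls 1 to 4 measured 103, 105.6, 114.2 and 107.7 CPM. TO 2, 3 and 4 measured 108.8, 108.2 and 112 CPM, and TO 1 96.14 from 28 counts. The 3 TO lungs were above the 3 controls of the 6 libraries, 109.7 ± 2.0 against 105.4 ± 2.36 CPM (SD, n = 3 each), but control 3 was higher than any of them. This log2 fold change of 0.06 (SE 0.0961, 95% interval -0.16 to 0.27, adjusted p = 0.968 in edgeR) had the narrowest interval of the family. Over the 7 libraries the SD of its log2 CPM was 0.0497, and 0.106% of 22539 genes had a smaller one. Of the 3941 genes within 2-fold of its mean level, 0.482% did.

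Erbb3, which binds Nrg1 and signals through Erbb2, was the most abundant member. Controls 1 to 4 measured 180.3, 193.5, 274.4 and 167.7 CPM. TO 1 to 4 measured 123.6 (36 counts), 171, 194.8 and 160.9 CPM. Control 3 stood above the rest, and the groups overlapped among the other 6 deep libraries. The log2 fold change was -0.04 (SE 0.110, 95% interval -0.29 to 0.21, adjusted p = 0.980 in edgeR) without control 3 and -0.22 with it in the 7 libraries (adjusted p = 1, edgeR). With the replicate number as a block it was -0.11 in the 6 libraries (unadjusted p = 0.405), -0.24 in the 7 (unadjusted p = 0.0944) and -0.30 in all 8 (unadjusted p = 0.0403), and with the specimen code as a block -0.25 in the 7 (unadjusted p = 0.0499, adjusted p = 1 in each, edgeR). In the 6 libraries only numbers 2 and 4 have a library of each group, so the blocked value there rests on those pairs.

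Among the 3 pairs of deep libraries with the same number (2, 3 and 4), Erbb3 was lower in the TO lung of all 3 pairs and Egfr higher in all 3. The other 8 members were higher in TO in some pairs and lower in others. How many of all genes agree in all 3 pairs was not counted, so no result is drawn from this agreement. With the block the log2 fold change of Egfr was 0.22 in the 7 libraries (unadjusted p = 0.169, adjusted p = 1, edgeR).

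**Figure D3:**
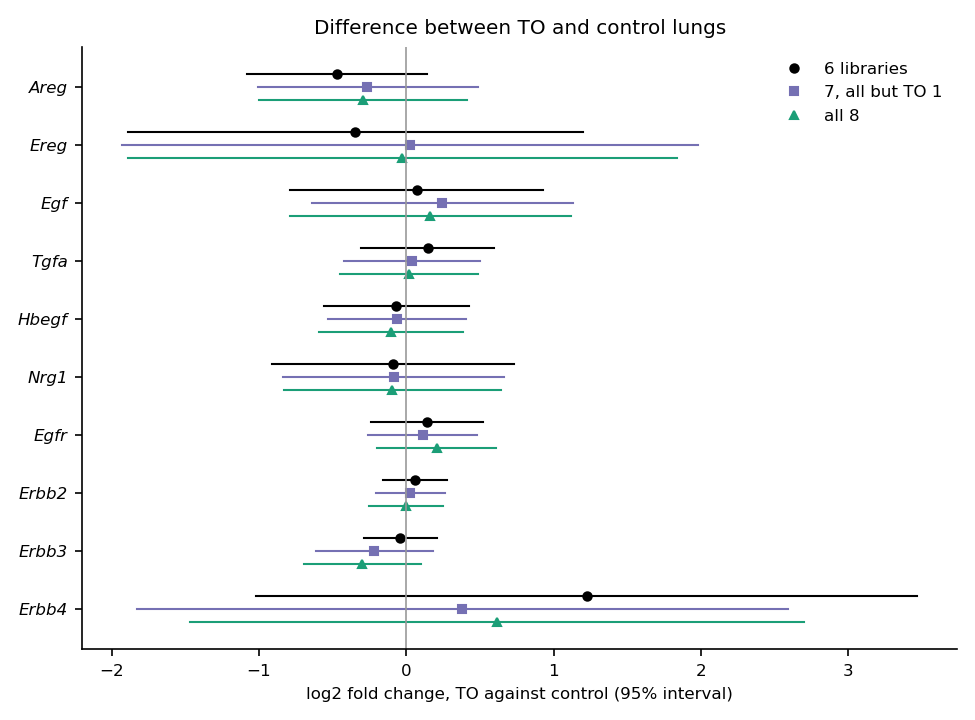
Log2 fold change of each member, TO against control, with its 95% interval from edgeR in 6 libraries (black), 7 libraries (violet) and all 8 (green). Every interval includes 0, and the intervals of Erbb4 and Ereg are the widest.

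Erbb4, the neuregulin receptor with its own kinase, varied more than any other member, and its 2 lowest libraries were those with the least heart muscle RNA. Controls 1 to 4 measured 1.051, 0.2276, 15.64 and 9.946 CPM, which are 24, 7, 466 and 246 counts. TO 1 to 4 measured 27.47, 4.828, 8.554 and 12.88 CPM, which are 8, 167, 207 and 453 counts. Controls 1 and 2 were the lowest of all libraries, control 4 lay within the range of the deep TO lungs and control 3 above it. The SD of its log2 CPM over the 7 libraries was 2.11 against a median of 0.41 over all genes, and 99.6% of genes had a smaller one. Of 3323 genes within 2-fold of its level, 99.2% did. TO lungs had 2.34 times the control level, a log2 fold change of 1.23 (SE 0.995, 95% interval -1.02 to 3.47, adjusted p = 0.915 in edgeR), which was 0.38 in the 7 libraries (adjusted p = 1, edgeR).

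That difference depended on single controls. Without control 4, which leaves the low controls 1 and 2, it was 3.81 (unadjusted p = 0.000603, adjusted p = 0.141, edgeR). By contrast, without control 1 it was 0.80 and without control 2 it was 0.67 (unadjusted p = 0.478 and 0.43, adjusted p = 0.999 and 1, edgeR). Without TO 4 it was 0.85 (unadjusted p = 0.458, adjusted p = 0.861, edgeR), and limma-voom gave 2.73 (unadjusted p = 0.0198, adjusted p = 0.774). With the replicate number as a block it was 1.89 in the 6 libraries (unadjusted p = 0.00154, adjusted p = 0.133, edgeR). Only numbers 2 and 4 have a library of each group there, so this value rests on those pairs alone. The same block gave 0.83 in the 7 libraries (unadjusted p = 0.28, edgeR). The estimate stayed above 0 in all 18 alternatives and was called in none.

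The heart muscle markers Myh6, Actc1, Tnnt2, Myl4, Myl7 and Tnni3 summed to 689.5, 436.3, 4482 and 3577 CPM in controls 1 to 4. They summed to 5477, 2306, 3460 and 4501 CPM in TO 1 to 4. Their log2 fold changes were all above 0 (6 of 6, median 1.12), none had an unadjusted p under 0.05, and none was at 0 in any library. Controls 1 and 2 were thus lowest on both measures. Per 1000 CPM of these markers, Erbb4 was 1.52, 0.522, 3.49 and 2.78 CPM in controls 1 to 4. The same ratio was 5.02, 2.09, 2.47 and 2.86 in TO 1 to 4. The ratio of control 4 thus lay within that of the deep TO lungs, that of control 3 above it and those of controls 1 and 2 below it. Because the libraries fall into separate clusters no correlation was computed, and the part of heart tissue in the Erbb4 values was not tested. Skeletal muscle markers summed to 12.52 CPM in control 2, 110.2 to 277.3 CPM in the other deep libraries and 2342 in TO 1. Different members made up these sums. Ckm was at 129.6 CPM in control 3 and 20.84 in control 1, but Myh3 was at 1.175 and 29.68 CPM there. Myod1 had 0 counts in controls 3 and 4 and TO 1, and Tnnc2 in all libraries but controls 2 and 4.

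**Figure D4:**
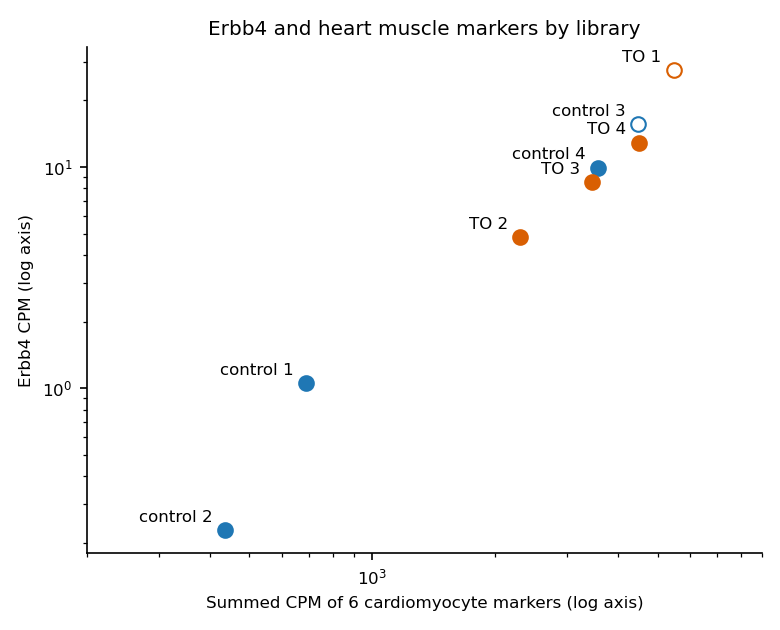
Erbb4 CPM against the summed CPM of 6 heart muscle markers in each library (both axes log), controls in blue and TO in orange, with control 3 and TO 1 open. Controls 1 and 2 lie at the lower left, at 1.051 and 0.2276 CPM of Erbb4, and the other 6 libraries of both groups lie together at the upper right.

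The libraries did not order the members in one way. Control 3 was the highest of the 7 deep libraries for 4 members (Tgfa, Erbb2, Erbb3 and Erbb4) and the lowest for 3 (Areg, Ereg and Egf). It was left out of the study's comparison for no stated reason. TO 4 was the highest for 2 (Ereg and Egf) and the lowest for 2 (Hbegf and Erbb3). The other 5 libraries were an extreme for 0 to 3 members each.

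In the wider EGF receptor pathway edgeR called no gene. DESeq2 called Fos (log2 fold change 1.22, adjusted p = 0.0356), where it called 0.201% of all genes. Of 62 genes in 5 lists of further ligands, sheddases, feedback regulators, relay proteins and ERK-induced transcripts, 59 were tested. Without TO 4, edgeR called 2 of them, Errfi1 (adjusted p = 0.0688) and Fos (adjusted p = 0.0937), where it called 144 of all 20801 genes tested. In the 6 libraries the log2 fold changes of the 59 were above 0 in 29 and below in 30, with a median of -0.00425. At an unadjusted p under 0.05 there were 7 (5 higher and 2 lower in TO), or 11.9% against 5.14% of all genes. In the 7 libraries there was 1, or 1.69% against 2.0% of all genes. CPM did not overlap between groups in 11 of 59 in the 6 libraries, beside 10.9% of all genes. The adjusted p of each of the 7 was 0.907 (edgeR).

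Of the further ligands, 3 of 5 were tested and none had an unadjusted p under 0.05. Nrg2, a second neuregulin, had a log2 fold change of -0.14, and Btc (betacellulin), from the same cluster as Areg, one of 0.10. Epgn (epigen) and Nrg3 had too few reads to test. Among 9 sheddases and partners, which release the ligands, none had an unadjusted p under 0.05. Adam10, which sheds Egf and betacellulin, had a log2 fold change of -0.01, and Adam9 one of 0.10.

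Feedback and turnover genes held 2 of 16 with an unadjusted p under 0.05. Dusp4, a phosphatase that switches off ERK, was at 11.34, 8.358, 16.41 and 10.8 CPM in controls 1 to 4 and 21.62, 16.82 and 11.83 CPM in TO 2, 3 and 4. Its groups overlapped once control 3 was included, and its log2 fold change of 0.72 (unadjusted p = 0.0169, edgeR) became 0.51 in the 7 libraries. Errfi1 (Mig6), an inhibitor that binds the Egfr kinase, was at 109.6, 111.6, 176.7 and 104.7 CPM in controls and 168.1, 171.9 and 100.9 CPM in TO 2, 3 and 4. Control 3, TO 2 and TO 3 were high and the other 4 low, and its log2 fold change was 0.43 (unadjusted p = 0.0417, edgeR), or 0.23 in the 7 libraries. Dusp6, an ERK phosphatase that ERK signaling itself induces, had a log2 fold change of -0.00425.

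Of 22 relay genes, 3 had an unadjusted p under 0.05. Stat3, a transcription factor activated by receptor and cytokine signals, was at 142.7, 122, 244.5 and 146.8 CPM in controls 1 to 4 and 185.2, 224.4 and 155.5 CPM in TO 2, 3 and 4. Control 3 was again the highest, and the log2 fold change of 0.46 in the 6 libraries (unadjusted p = 0.0118, edgeR) became 0.20 in the 7. Pik3r1, the regulatory subunit of PI3K, had a log2 fold change of 0.31 (unadjusted p = 0.0422, edgeR) and overlapping groups. Src, a tyrosine kinase, was lower in TO lungs in both sets of libraries. It measured 133.8, 156.8, 134.2 and 128.6 CPM in controls 1 to 4 and 120.6, 105.1 and 107.8 CPM in TO 2, 3 and 4, without overlap. Its log2 fold change was -0.33 (unadjusted p = 0.0186, edgeR) in the 6 libraries and -0.32 (unadjusted p = 0.0259, edgeR) in the 7, and it was the 1 pathway gene under 0.05 there. Mapk3 (ERK1) and Akt1, the most abundant per kilobase, had log2 fold changes of -0.15 and -0.03.

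Of 9 ERK-induced transcripts tested, 2 had an unadjusted p under 0.05, in opposite directions. Fos, an immediate early gene of the AP-1 family, was at 4.684, 6.504, 24.37 and 5.903 CPM in controls 1 to 4. In TO 2, 3 and 4 it was at 11.94, 18.26 and 9.524 CPM, above controls 1, 2 and 4 but below control 3. Its log2 fold change was 1.21 (unadjusted p = 0.00172, edgeR) in the 6 libraries and 0.35 in the 7 (unadjusted p = 0.534, edgeR). Myc, a growth regulator, was at 28.15, 20.06, 9.533 and 22.6 CPM in controls and 19.25, 14.42 and 17.57 CPM in TO 2, 3 and 4. Its log2 fold change was -0.47 (unadjusted p = 0.0337, edgeR), or -0.23 in the 7 libraries. Etv5 and Ier3, the most abundant per kilobase, had log2 fold changes of -0.25 and 0.48, and Fosl1 had too few reads to test.

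**Figure D5:**
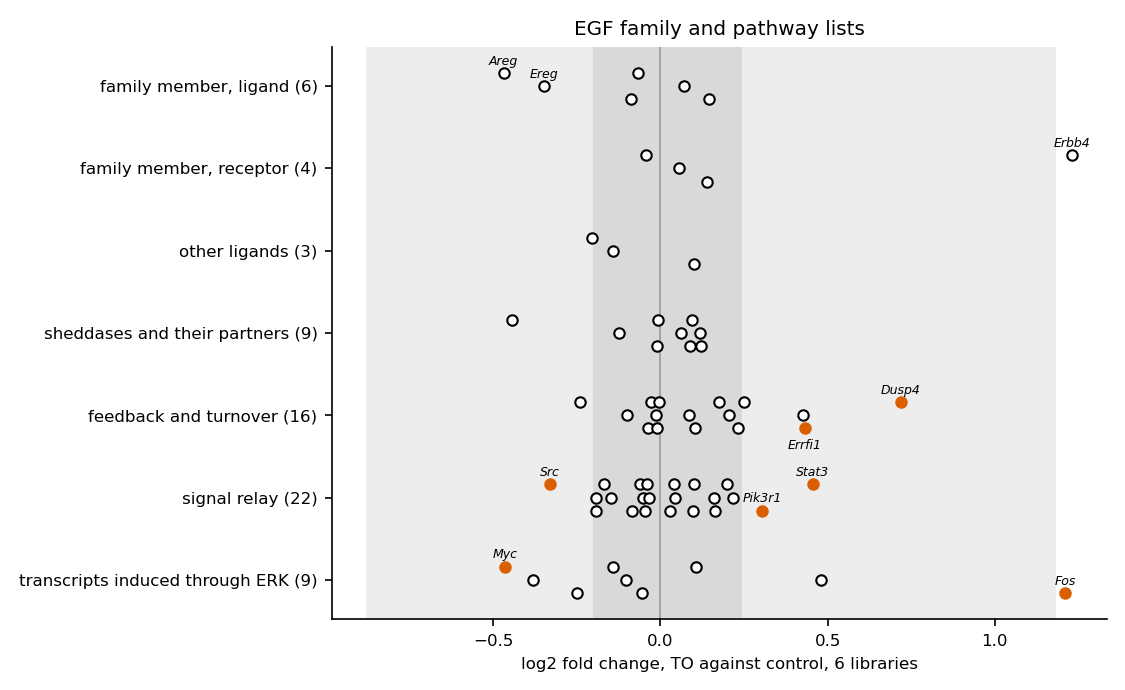
The log2 fold change, TO against control in 6 libraries, of each tested gene, by list, with the number tested in parentheses. Filled points have an unadjusted p under 0.05, and gray bands hold the middle 50% and 90% of all genes tested, -0.20 to 0.24 and -0.88 to 1.18. Most points lie inside the narrow band, and Erbb4 and Fos lie at 1.23 and 1.21, just outside the wide one.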

How the data were processed

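The authors aligned 150-bp read pairs of NexteraXT libraries to GRCm38 with STAR, whose version is not given in the sources used here. They deposited unnormalized counts, the number of pairs on each gene, and the column for both strands together was used, since 49.87% to 50.11% of the counts on genes fell in one strand column. Pairs on no gene (9.64% to 14.9%), on more than 1 gene (4.998% to 5.74%) or at more than 1 place in the genome (3.76% to 4.28%) were left out. Symbols, coordinates, exon lengths and sequences came from GENCODE M21 (GRCm38), to which 55144 of 55385 IDs matched without the version.

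CPM used TMM factors of all 8 libraries, and log2 CPM a prior count of 2. A gene entered the test if 3 or more of the libraries fitted had 5 reads, and testing was by edgeR 4.0.16 in R 4.3.3 with Benjamini-Hochberg adjustment over all genes and a threshold of 0.1, as the study used. Alternatives were DESeq2 1.42.0, limma 3.58.1 (voom), other scaling and filters, other sets of libraries, each library left out and blocks for the replicate number or for the code that ends the specimen names. All 10 members, the 2 most abundant genes per kilobase of each pathway list and those with an unadjusted p under 0.05 are named. Members and lists were chosen with earlier results of these data known. Limits from 0 counts cover counting error only, and the 95% intervals are those of the edgeR fit.

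Libraries with the same replicate number deviated together by a correlation of 0.111 and 0.044 (numbers 2 and 4) in the 6 libraries and of 0.125, 0.204 and 0.109 (numbers 2, 3 and 4) in the 7, and of 0.0507 to 0.157 in all 8. Each of the 3 pairs of the 7 libraries passed 0.1, so blocked values are given beside the others. Control 1 and TO 4 had 0.13 in the 6 libraries and 0.168 in the 7, above pairs 2 and 4. Their numbers differ, but their specimen code is the same. Libraries with the same number also share a code, numbers 1 and 4 having the same code and numbers 2 and 3 a code each. Nothing in the labels says what a number or a code stands for, so the pairing is not certain.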

Additional observations from a re-analysis of the deposited data

How the results depend on the processing

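No member was called under any alternative. Of 180 member values under 18 alternatives each, 160 kept their direction and 20 reversed it, and the direction of Areg and Erbb4 was kept in all 18. Genes called in all, 0 by edgeR in the 6 libraries (1123 with an unadjusted p under 0.05), were 40 with every gene that had a read and 44 with DESeq2, and 0 to 144 when 1 library was left out (52 without control 4, 144 without TO 4). Pathway genes called, 0 by edgeR, were 1 with DESeq2 (Fos) and 0 to 2 when 1 library was left out, namely Errfi1 (log2 fold change 0.65, adjusted p = 0.0688, edgeR) and Fos (1.41, adjusted p = 0.0937) without TO 4. The log2 fold change reversed for Egf with limma-voom (-0.0237), for Erbb2 in all 8 libraries (-0.00137) and for Ereg in the 7 libraries (0.0246). When 1 library was left out, Ereg ran from -1.03 to 0.014, Egf from -0.22 to 0.36, Hbegf from -0.27 to 0.0475, Nrg1 from -0.28 to 0.21, Egfr from -0.00788 to 0.31 and Erbb3 from -0.11 to 0.0222. Where 1 group kept 2 libraries, its spread was estimated with that of the other group. The causes were not tested.

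With the replicate number as a block, edgeR called 219 genes in the 6 libraries, 5 in the 7 and 3 in all 8, and 1 in the 7 with a block for the specimen code, but no member and no pathway gene. In the 6 libraries control 1 and TO 3 have no partner with their number. The block there compares TO with control in numbers 2 and 4 only. Against the same libraries without a block, the replicate block reversed Egf (-0.00395) and Hbegf (0.11) in the 6 and Tgfa (-0.0609) in the 7. In all 8 it reversed Ereg (0.26) and Tgfa (-0.0442). Ereg in the 7 (0.38, and 0.45 with the specimen code block) and Erbb2 in all 8 (-0.00913) had already changed direction without a block. A block changed no other direction or call of a member. Depth limits Ereg, with 2 to 42 counts in the deep libraries, and every member in TO 1, with 0 to 36.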
